A study of Homo sapiens with 12 samples.

Results

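The genes described are 45 genes of mitosis and of the G2/M transition, of 55765 genes in the count table. They were chosen by their symbols, as cyclins, mitotic kinases, kinetochore, spindle and cytokinesis genes, and all 45 passed the filter on low counts. Earlier results of these data were known when they were chosen. RNA was sequenced from OCI-AML2, a human cell line from acute myeloid leukaemia, grown as clones raised from single cells and carrying a doxycycline-inducible MEF2C construct. MEF2C is a transcription factor of blood, muscle and neurons, and the S222A form has alanine in place of a serine. The 4 groups of 3 libraries each were S222A induced (doxycycline), S222A uninduced (vehicle), WT induced (doxycycline) and WT uninduced (vehicle). Exposure was 48 h in 3 ml with 600 ng doxycycline or with vehicle. How many clones stand for each construct is not given, and doxycycline-treated cells without a MEF2C construct were not analysed here. Nothing in the labels says that replicates were separate cultures, so p-values measure only the spread among these samples, and that spread may be technical. RNA came from whole cultures, so fewer cells in G2 and mitosis and less RNA per cell cannot be told apart.

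Entry into mitosis is driven by the kinase CDK1 with its cyclin partners, which CDC25 phosphatases switch on. Aurora and Polo kinases, the kinetochore and the spindle motors then align the chromosomes, and the spindle checkpoint holds the anaphase-promoting complex in check until every kinetochore is attached. CDC20 and UBE2C then work with that complex to destroy securin and cyclin B, and separase and the cytokinesis machinery finish division. Most of these genes are transcribed late in the cell cycle. Their promoters are known for a cell cycle genes homology region (CHR), bound by the DREAM and MYB-MuvB complexes with FOXM1, and for CCAAT boxes bound by NF-Y. In proliferating leukaemia cells these transcripts are widely used as measures of cell division.

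Promoters of 39 of the 45 genes were in the RefSeq table (GRCh38.p14, from 250 bases before to 50 after the start). FOXM1, AURKA, TTK, UBE2C, BIRC5 and TPX2 had no entry. Each of the 39 was counted once, by its first entry. The shares over all promoters and over those of tested genes count every entry, so a gene there can count more than once. The CHR letters TTTGAA or TTCGAA, on either strand, were in 29 of the 39 promoters (74.4%), against 16.4% of all 35116 promoters in the table and 12.3% of the 11723 that belong to tested genes. TTTGAA and TTCGAA are different letters of equal length, and TTCGAA reads the same on both strands. The letters CCAAT, on either strand, were in 28 of 39 (71.8%), against 34.6% of all promoters and 34.9% of those of tested genes. Both kinds were in 22 of 39 (56.4%), against 6.38% of all promoters and 4.96% of those of tested genes. A match is a description of letters and not evidence of a bound site. The promoter of CCNB1 is shown because this gene was called lower on S222A induction. Those of CDC20 and TOP2A are shown because these genes had the smallest p there among members whose windows hold both kinds of letters. They were thus picked after the matches were seen. Both genes lay lower there without overlap, and neither was called. Capitals mark CCAAT boxes and CHR letters on either strand, and positions below count from the first capital of a match to the start.
CCNB1, chr5:69166900-69167199, plus strand: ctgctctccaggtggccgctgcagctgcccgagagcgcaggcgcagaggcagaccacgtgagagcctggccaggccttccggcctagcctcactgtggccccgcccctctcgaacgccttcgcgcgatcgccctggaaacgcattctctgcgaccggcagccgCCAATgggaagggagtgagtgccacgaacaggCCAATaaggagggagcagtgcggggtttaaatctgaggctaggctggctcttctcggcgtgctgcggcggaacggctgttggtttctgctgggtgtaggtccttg
CDC20, chr1:43358731-43359030, plus strand: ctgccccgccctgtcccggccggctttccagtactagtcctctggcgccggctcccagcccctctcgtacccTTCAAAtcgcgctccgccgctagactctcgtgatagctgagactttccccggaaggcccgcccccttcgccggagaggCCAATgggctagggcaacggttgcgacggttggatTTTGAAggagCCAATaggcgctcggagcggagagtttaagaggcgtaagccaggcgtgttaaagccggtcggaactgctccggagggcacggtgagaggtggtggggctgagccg
TOP2A, chr17:40417847-40418146, minus strand: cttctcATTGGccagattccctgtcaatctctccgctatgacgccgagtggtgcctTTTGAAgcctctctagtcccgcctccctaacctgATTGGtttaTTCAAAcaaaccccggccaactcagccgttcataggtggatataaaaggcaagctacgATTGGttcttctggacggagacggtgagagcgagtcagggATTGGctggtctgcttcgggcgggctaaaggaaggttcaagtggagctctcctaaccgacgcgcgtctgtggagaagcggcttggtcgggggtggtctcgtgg
The CCNB1 window holds 2 CCAAT boxes, 87 and 55 bases upstream of the start, and neither of the CHR letters searched. CDC20 holds CCAAT at 100 and 55 bases and TTTGAA at 65 bases upstream, plus a TTTGAA on the other strand at 178 bases. TOP2A holds 4 CCAAT boxes on the other strand, between 244 and 53 bases upstream, and TTTGAA on both strands, at 194 and 151 bases.

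Library totals ran from 875710 to 13134791 counts, and the 45 genes together took 8096 to 79728 counts per library. The deepest library of every group had 5412391 to 13134791 counts, and the other 8 had 875710 to 4489036. Mitochondrial counts made up 5.03 to 7% in the deepest and 6.86 to 9.27% in the others, and results are also given within each of these sets. A floor of 3 counts, covering counting error only, was 0.228 to 3.43 CPM (counts per 1e6 counts). MEF2C averaged 887 ± 89.4 CPM in S222A induced, 702 ± 98.2 CPM in S222A uninduced, 777 ± 90.3 CPM in WT induced and 736 ± 86.2 CPM in WT uninduced cells (SD, n = 3 each). It was not called on doxycycline in either line (log2 0.34, adjusted p = 0.285 in S222A; log2 0.077, adjusted p = 1.00 in WT), and reads of construct and native gene are not separated. Of 12 genes listed as myeloid markers 8 had counts in every library. Among them PTPRC stood at 516 to 760 CPM, CD33 at 27.5 to 58 CPM and MPO at 0.693 to 19.3 CPM. ITGAM, CD14 and ELANE were at 0 in some libraries, and CEBPA was listed at 0 in all 12. Of 15 markers of other cell types 7 never passed 3 counts in a library. HBB, ALAS2 and EPCAM were at 0 throughout, while CDH1 stood at 12.4 to 37.2 CPM and CD4 at 8.42 to 25.5 CPM.

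In the S222A line nearly all of the 45 genes had lower fitted levels with doxycycline than with vehicle, and 2 passed the test. CCNB1 (cyclin B1) and TPX2 (a spindle assembly factor that activates Aurora A) were each 1.58-fold lower, and no member rose. The other 43 were not called at an adjusted p under 0.05 (edgeR quasi-likelihood test, Benjamini-Hochberg over 11474 genes). The 2 called lower stand against 1.66% of all tested genes lower, 2.8% higher and 4.45% either way, and 13 of 45 were lower at an unadjusted p under 0.05, against 9.26%. The log2 fold change was below 0 in 44 of 45 genes, against 49.2% of all genes, with a median of -0.40 against 0.0090 over all genes. In 17 of the 45, every S222A induced library was below every S222A uninduced one, against 13% of all genes, and none had the opposite pattern, against 14.4%. SMC4 moved to the other side of 0 with upper quartile factors, at 0.0011; with RLE factors 44 genes were below 0.

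The members' summed share of all counts was 0.658%, 0.697% and 0.607% in the S222A induced libraries, and 0.784%, 0.842% and 0.952% in the S222A uninduced ones. It was 0.755%, 0.925% and 0.858% in WT induced and 0.806%, 0.779% and 0.902% in WT uninduced libraries. The S222A induced shares were below all 9 others, and the WT groups overlapped. No p is given for this sum, since it is a score over the chosen genes. Abundant genes weigh most in it: in S222A induced replicate 3, TOP2A had 22647, CENPF 7966 and SMC4 6152 of the 79728 member counts. The mitochondrial share was 7% in the deepest S222A induced library and 5.87% in the deepest S222A uninduced one, and in the other libraries 8.80% and 8.70% in S222A induced and 6.86% and 8.17% in S222A uninduced cells. In the WT line it was 5.04% in the deepest induced and 5.03% in the deepest uninduced library, and in the others 9.27% and 8.33% in WT induced and 7.25% and 7.60% in WT uninduced cells. The summed level of 3 fibroblast markers, of which PDGFRB alone had counts in every library, was 7.01 to 9.7 CPM in S222A induced and 3.29 to 6.01 CPM in S222A uninduced cells. It was 5.79 to 9.21 CPM in WT induced and 3.03 to 7.92 CPM in WT uninduced cells. Sums of 3 epithelial markers leaned the other way, at 12.4 to 25.6 CPM in S222A induced and 19.1 to 35 CPM in S222A uninduced cells, with overlap. The myeloid, T cell, B cell and erythroid sums overlapped between these S222A groups too. The part of any of these measures in the lower mitotic RNA was not tested.

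**Figure D1:**
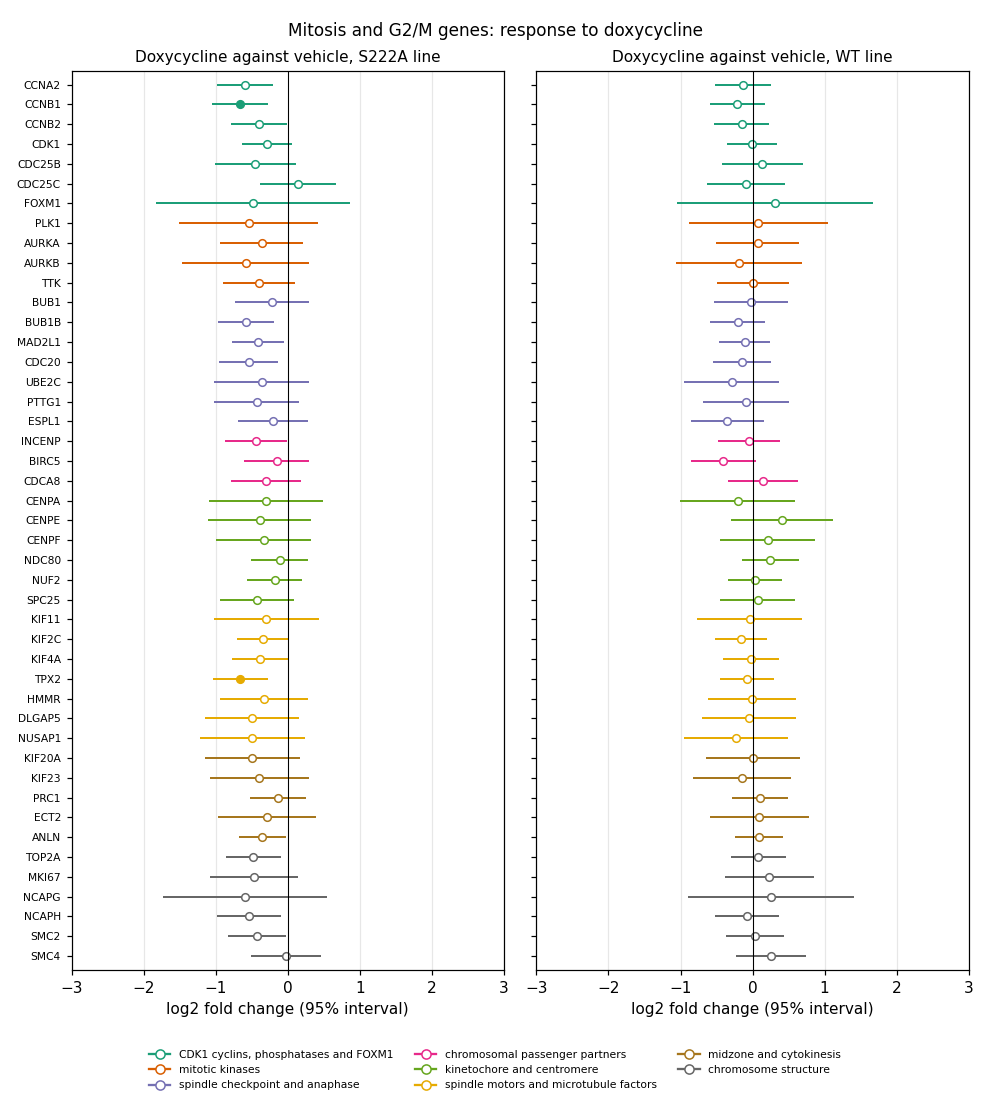
Log2 fold change of each of the 45 genes (rows, coloured by role group) for doxycycline against vehicle in the S222A line (left) and the WT line (right). Points are edgeR estimates, bars 95% intervals, and filled points are called genes; CCNB1 and TPX2 on the left are the 2 filled points, and most points on the left lie below 0 while those on the right lie on both sides.

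**Figure D2:**
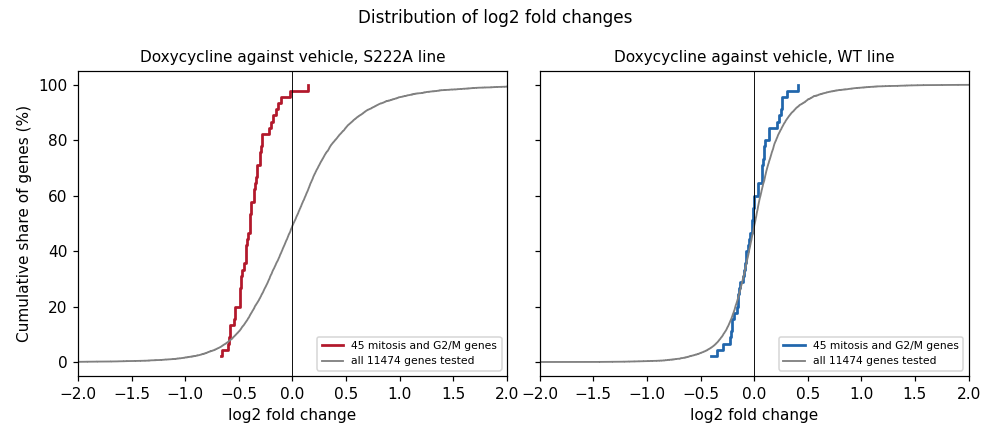
Cumulative share of genes (%) by log2 fold change for doxycycline against vehicle, for the 45 genes (coloured) and all 11474 tested genes (grey), in the S222A line (left) and the WT line (right). The curve of the 45 genes reaches its median at -0.40 on the left and at -0.022 on the right.

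Against 1.66% of all genes called lower, 1 of 7 drivers of mitotic entry fell, CCNB1. Its RNA stood at 108, 102 and 81.8 CPM in S222A induced and at 128, 142 and 195 CPM in S222A uninduced cells. No S222A induced value reached the lowest S222A uninduced one. The log2 fold change was -0.66 ± 0.17 (SE; 95% interval -1.03 to -0.29), with an edgeR adjusted p = 0.0471. Cyclin A2 (CCNA2), which acts with CDK2 and CDK1 in S phase and G2, stood at 43.6, 69.8 and 59.8 CPM in S222A induced and at 83.8, 82.1 and 97.5 CPM in S222A uninduced cells. These groups did not overlap either, but the gene was not called (log2 -0.59 ± 0.17, adjusted p = 0.0748). CCNB2, a close relative of cyclin B1, had a log2 fold change of -0.40 (adjusted p = 0.229) and likewise no overlap.

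The kinase CDK1 stood at 127, 133 and 125 CPM in S222A induced and at 149.9, 169.9 and 148 CPM in S222A uninduced cells. All induced values were lower, by a small amount (log2 -0.28 ± 0.15, adjusted p = 0.352). CDC25B, a phosphatase that starts CDK1 activation, also had no overlap (log2 -0.45, adjusted p = 0.374). CDC25C, a phosphatase of the same family, was the 1 member above 0, at 27.7, 25.0 and 22.4 CPM in S222A induced and at 17.1, 27.1 and 25.2 CPM in S222A uninduced cells. Its groups overlapped (log2 0.15 ± 0.24, adjusted p = 0.824), and it went to -0.069 without S222A uninduced replicate 1. FOXM1, a transcription factor of G2/M genes, had 2 to 21 counts per library, 15.9% of its exon length overlaps ITFG2 on the other strand, and its log2 fold change of -0.48 had an SE of 0.62.

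All 4 mitotic kinases were below 0, against 49.2% of all genes, and none was called. AURKB, the Aurora kinase of the chromosomal passenger complex, stood at 97.0, 72.5 and 142 CPM in S222A induced and at 181, 142 and 142 CPM in S222A uninduced cells. The highest S222A induced and the lowest S222A uninduced value were both 142 CPM, so the separation of these groups was marginal (log2 -0.58 ± 0.40, adjusted p = 0.489). PLK1, the Polo kinase, stood at 40.2, 37.2 and 75.1 CPM in S222A induced and at 103, 56.2 and 60.2 CPM in S222A uninduced cells, with overlap. Its log2 fold change was -0.54 (adjusted p = 0.580), and 11.6% of its exon length overlaps another gene on the other strand. AURKA, which matures the spindle poles, and TTK, which starts checkpoint signalling, had log2 fold changes of -0.36 and -0.40, with adjusted p = 0.516 and 0.370.

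Of 7 genes of the spindle checkpoint and anaphase none was called, and all 7 were below 0, against 49.2% of all genes. In 4 the groups did not overlap, against 13% of all genes lower without overlap. BUB1B, which encodes the checkpoint protein BUBR1, stood at 55.8, 62.2 and 56.3 CPM in S222A induced and at 79.2, 78.4 and 106 CPM in S222A uninduced cells. Every induced library was lower (log2 -0.58 ± 0.17, adjusted p = 0.0762), and 10.2% of its exon length is shared with the readthrough gene BUB1B-PAK6. CDC20, an activator of the anaphase-promoting complex, stood at 63.0, 57.8 and 56.7 CPM in S222A induced and at 87.1, 77.2 and 95.3 CPM in S222A uninduced cells. Its groups, too, were apart (log2 -0.54, adjusted p = 0.115). MAD2L1, the checkpoint protein that inhibits CDC20, stood at 104, 112 and 108 CPM in S222A induced and at 154, 153 and 122 CPM in S222A uninduced cells. It did not overlap and was not called (log2 -0.41, adjusted p = 0.175). PTTG1 (securin) had a log2 fold change of -0.43 with no overlap. UBE2C, BUB1 and ESPL1 (separase) overlapped, at -0.36, -0.22 and -0.20.

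None of the 3 partners of Aurora B in the passenger complex was called, INCENP at -0.43, CDCA8 (borealin) at -0.30 and BIRC5 (survivin) at -0.15. Nor was any of the 6 kinetochore and centromere genes. SPC25, a subunit of the NDC80 complex that grips microtubules, was the 1 without overlap (log2 -0.43, adjusted p = 0.350), while its partners NDC80 and NUF2 stood at -0.11 and -0.18. CENPE, a kinetochore motor, CENPF, a kinetochore protein, and CENPA, the centromeric histone H3 variant, stood at -0.39, -0.33 and -0.30.

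Among 7 spindle motors and microtubule factors all were below 0, against 49.2% of all genes, and TPX2 fell, against 1.66% called lower. TPX2 stood at 149, 158 and 132 CPM in S222A induced and at 196, 205 and 296 CPM in S222A uninduced cells. The highest induced value was under the lowest uninduced one. The log2 fold change was -0.66 ± 0.17 (95% interval -1.02 to -0.29), with an edgeR adjusted p = 0.0469. The other 6 overlapped: KIF11, the motor that pushes spindle poles apart, at -0.30, KIF2C, which trims microtubule ends, at -0.34, the chromokinesin KIF4A at -0.38, and the microtubule-binding spindle factors HMMR at -0.33, DLGAP5 at -0.49 and NUSAP1 at -0.49. NUSAP1 shares 62.2% of its exon length with an overlapping annotated gene on the same strand, and PRC1 shares 57.6% with another, so both are uncertain.

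Of the 5 genes of the midzone and cytokinesis none was called. ANLN, the anillin that scaffolds the cleavage furrow, stood at 58.9, 74.5 and 62.7 CPM in S222A induced and at 85.8, 79.2 and 85.4 CPM in S222A uninduced cells. It did not overlap (log2 -0.35, adjusted p = 0.210). The cytokinesis motors KIF20A and KIF23, ECT2, which is needed for the cleavage furrow, and PRC1, which bundles midzone microtubules, stood at -0.49, -0.39, -0.29 and -0.13, each with overlap.

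None of the 6 chromosome structure genes was called, and 4 did not overlap, against 13% of all genes lower without overlap. TOP2A, the topoisomerase that untangles sister chromatids, stood at 1611, 1590.0 and 1805 CPM in S222A induced and at 2197, 1984 and 2784 CPM in S222A uninduced cells. All induced values were lower (log2 -0.48 ± 0.17, adjusted p = 0.140). MKI67, the Ki-67 proliferation antigen that coats mitotic chromosomes, had a log2 fold change of -0.47 (adjusted p = 0.408) with no overlap. The condensin genes NCAPH and SMC2 had no overlap either, at -0.54 and -0.43. NCAPG stood at -0.60 with overlap, and 33.1% of its exon length overlaps LCORL on the other strand. The condensin ATPase gene SMC4 stood at -0.023, the closest of the 45 to 0, and shares 18.5% of its exon length with TRIM59.

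**Figure D3:**
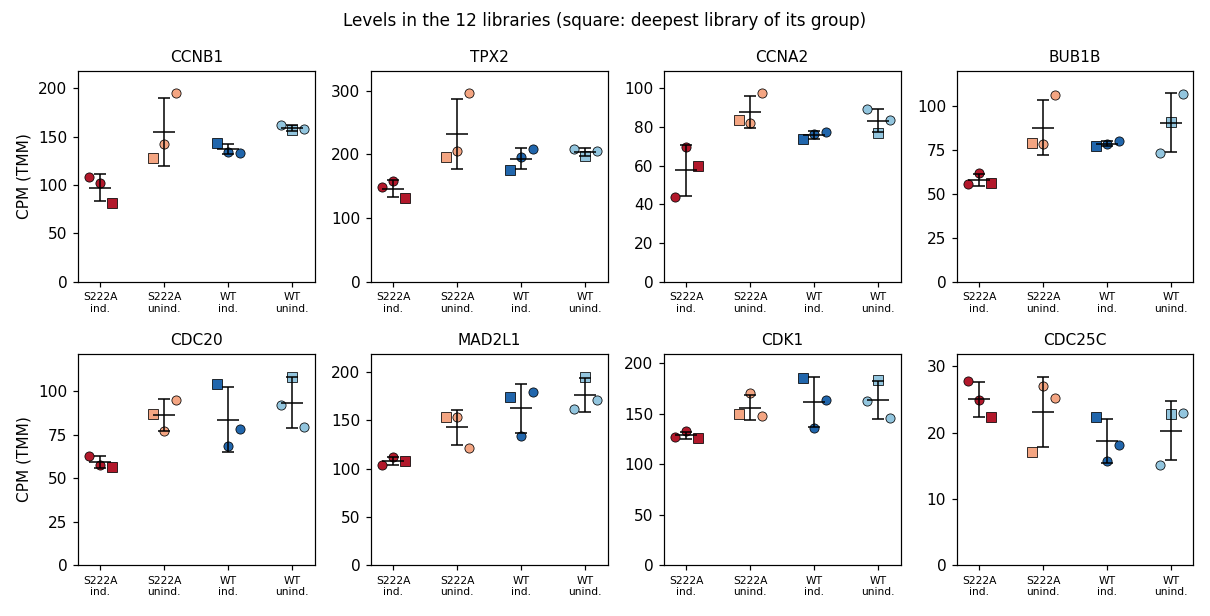
CPM (TMM-scaled) of 8 members in each of the 12 libraries, by group, with mean and SD (n = 3); squares are the deepest library of each group. In the CCNB1 panel the 3 S222A induced points, at most 108 CPM, lie below all 9 others, of which the lowest is 128 CPM; CDC25C is the 1 panel with the S222A induced mean above S222A uninduced.

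The 2 calls were near the threshold. With any 1 library left out, CCNB1 was called only without WT induced replicate 1 (adjusted p = 0.0459) and without S222A uninduced replicate 1 (0.0493), and TPX2 only without WT induced replicate 1 (0.0405). For each of the other libraries the call was lost, CCNB1 reaching 0.167 and TPX2 0.154 without S222A induced replicate 3. DESeq2 called 4 members lower, CCNB1, TPX2, CCNA2 (adjusted p = 0.0395) and BUB1B (0.0350). Both calls were lost with upper quartile factors, with no filter on low counts and with only the compared groups in the fit, at adjusted p = 0.0628, 0.139 and 0.0972 for CCNB1 and 0.0624, 0.138 and 0.0872 for TPX2. A fit with a block for replicate number called neither gene. Over all 21 alternatives the adjusted p ran from 0.00237 to 0.167 for CCNB1, 0.00153 to 0.154 for TPX2, 0.00976 to 0.286 for CCNA2 and 0.0105 to 0.309 for BUB1B.

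In the WT line none of the 45 genes passed the test for a change with doxycycline. By edgeR, 0 of 45 were called, against 0.00872% of all genes; 0 were called by DESeq2 or limma-voom, and 0 reached an unadjusted p under 0.05 in either direction, against 0.488% of all genes in the lower one. There were 25 genes below 0, against 48.8% of all genes, and 20 above, with a median of -0.022 against 0.0062 over all genes. Log2 fold changes ran from -0.41 for BIRC5 to 0.41 for CENPE. CCNB1 stood at 143, 134 and 134 CPM in WT induced and at 162, 157 and 158 CPM in WT uninduced cells. These groups did not overlap, and the difference was small (log2 -0.21 ± 0.17, adjusted p = 1.00). ESPL1 (-0.35) and BIRC5 also lay lower without overlap, making 3 of 45 against 2.98% of all genes, and none lay higher, against 2.81%.

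TPX2 in the WT line stood at 176, 196 and 208 CPM in WT induced and at 209, 197 and 206 CPM in WT uninduced cells. These values overlap (log2 -0.077; 95% interval -0.44 to 0.29). The difference between the doxycycline effects, S222A minus WT, was -0.58 ± 0.24 for TPX2 (adjusted p = 0.716, the smallest of the 45) and -0.45 ± 0.24 for CCNB1 (adjusted p = 0.825). No member was called on this difference, 0 of 45 by edgeR and by DESeq2, against 0.0784% of all genes in either direction, 0.0261% lower and 0.0523% higher. At an unadjusted p under 0.05, 2 were lower, against 3.04%. It lay below 0 in 42 of 45 genes, against 50.9% of all genes, with a median of -0.38. A response in the S222A line that differs from that in the WT line was therefore not detected for any single member, and the unadjusted 95% intervals of these differences are wide, -1.10 to -0.060 for TPX2.

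**Figure D4:**
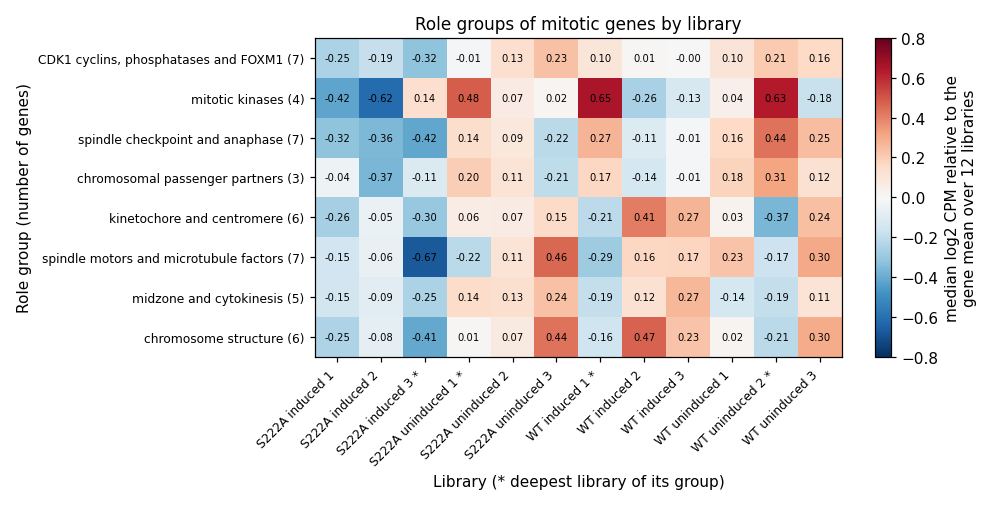
Median log2 CPM of each role group (rows, with the number of genes) relative to each gene's mean over the 12 libraries (columns; asterisks are the deepest library of each group), from blue (lower) to red (higher). The checkpoint and anaphase row is at -0.32, -0.36 and -0.42 in the 3 S222A induced libraries, and the mitotic kinase row is highest in the deepest library of each group, at 0.14 in S222A induced, 0.48 in S222A uninduced, 0.65 in WT induced and 0.63 in WT uninduced.

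Between the induced lines MAD2L1 was lower in S222A, 1 of 45 called lower against 2.61% of all genes lower, 3.73% higher and 6.34% either way. This count was near the share over all genes. MAD2L1 stood at 104, 112 and 108 CPM in S222A induced and at 174, 133 and 179.7 CPM in WT induced cells. All 3 S222A values were below the WT ones (log2 -0.60 ± 0.16, 1.51-fold, edgeR adjusted p = 0.0427). In uninduced cells too it was lower in S222A without overlap, at 154, 153 and 122 CPM in S222A uninduced and at 162, 195 and 171 CPM in WT uninduced cells. That difference was not called (log2 -0.30, adjusted p = 0.754). The MAD2L1 call between the induced lines was lost without any 1 of 9 libraries, with an adjusted p up to 0.168 without S222A induced replicate 1, and held without WT uninduced replicate 2, WT induced replicate 2 or S222A uninduced replicate 3. It was also lost with no filter (adjusted p = 0.1498), without the deepest libraries (0.0692) and with only the compared groups (0.0765), and held in 8 of 21 alternatives in all, with adjusted p from 0.00191 to 0.168.

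The median log2 difference between the induced lines was -0.38 against 0.00099 over all genes, with 43 of 45 below 0 against 49.9%, and 11 lower at an unadjusted p under 0.05 against 9.96%. Of the 45, 14 lay lower in S222A without overlap, against 12.9% of all genes, and 1 lay higher, against 15.2%: CDC25C, at 27.7, 25.0 and 22.4 CPM in S222A induced and at 22.4, 15.7 and 18.2 CPM in WT induced cells. Its difference was not called (log2 0.37, adjusted p = 0.415). SMC2 (-0.56, adjusted p = 0.0884), CCNB1 (-0.50, 0.109) and CDC20 (-0.52, 0.112) came next to MAD2L1 by p. CENPE (log2 -0.78, adjusted p = 0.183) was called without WT induced replicate 1 (adjusted p = 0.0450), and CCNB1 without S222A uninduced replicate 3 (0.04997). This comparison shares its S222A induced libraries with the doxycycline comparison, so the counts of both are not independent.

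Between the uninduced lines no member was called (0 of 45 by edgeR and by DESeq2, against 0.392% of all genes in either direction, 0.34% higher and 0.0523% lower), and 0 reached an unadjusted p under 0.05, against 3.3% in the lower direction. There were 22 below 0, against 49.7% of all genes, and 23 above, with a median of 0.021. MAD2L1 and BIRC5 (-0.35) were lower in S222A without overlap, 2 of 45 against 6.1% of all genes. ANLN was higher without overlap (0.27), 1 of 45 against 6.24%.

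The deepest libraries differed from the others of their groups for 22 members. Of the 45, 7 were higher (15.6%), which is below the 19.3% of all genes. The 15 lower were 33.3%, against 19.2% of all genes. PLK1 was 1.06 higher on the log2 scale in the deepest libraries, AURKB 0.84 and UBE2C 0.64. NCAPG stood at -1.26, FOXM1 at -1.09 and NUSAP1 at -0.82. Of the members, 10 were higher in the deepest library of each of the 4 groups, and 17 were lower in each. The share of all genes with such a pattern was not computed, so whether these counts are unusual cannot be said. Across the 45 genes this depth difference and log2 exon length had a Pearson r of -0.43 and a Spearman coefficient of -0.44 (n = 45 genes sharing the same 12 libraries), against -0.20 and -0.26 over 9731 tested genes with a length. Each group holds 1 deep library, and a term marking that library, called the depth term, was added to the fit. In every group the deepest library also had the lowest mitochondrial share. Whether depth or another trait of these libraries goes with the differences was not tested.

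**Figure D5:**
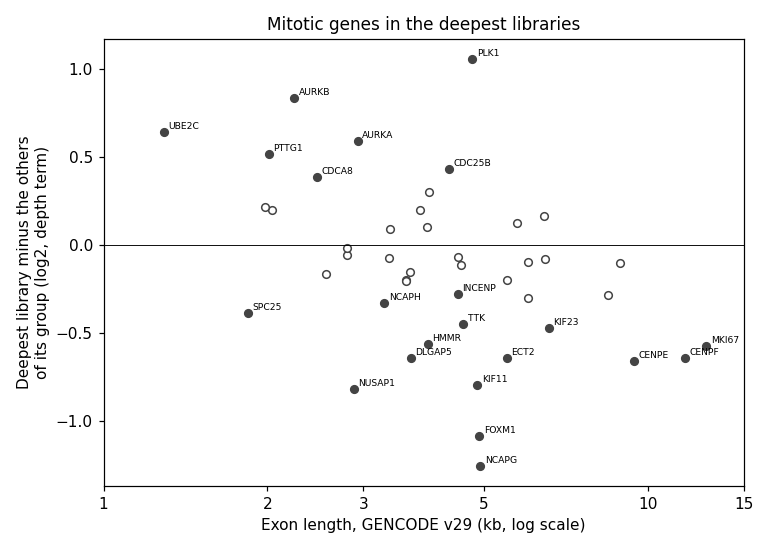
Log2 difference between the deepest library and the others of its group (vertical axis) against exon length in kb (horizontal, log scale) for the 45 genes; filled, named points are called. PLK1 and AURKB stand at 1.06 and 0.84, and NCAPG and FOXM1 at the bottom, at -1.26 and -1.09.

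With that term, 17 members were called lower on S222A induction (37.8%), against 9.12% of all genes, and none higher, against 8.77%. They were the cyclin genes CCNA2 and CCNB1, the kinase genes PLK1, AURKA and TTK, the checkpoint and anaphase genes BUB1B, MAD2L1 and CDC20, INCENP, the spindle genes TPX2, DLGAP5 and NUSAP1, and the chromosome genes TOP2A, MKI67, NCAPG, NCAPH and SMC2. The deepest libraries had PLK1 at 75.1 CPM in S222A induced and 103 CPM in S222A uninduced cells. In the other libraries PLK1 stood at 40.2 and 37.2 CPM in S222A induced and at 56.2 and 60.2 CPM in S222A uninduced cells. With the term its log2 fold change was -0.52 (adjusted p = 0.0160). CCNB1 and TPX2 had adjusted p = 0.00237 and 0.00153 with the term, and adjusted p = 0.0397 and 0.0333 with the deepest libraries left out.

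Within each set, plain differences of mean log2 CPM were also taken, without a fit. In the S222A line 44 of 45 members were below 0 by this measure within the deepest libraries (median -0.43) and 37 within the others (median -0.34). The edgeR fit without the deepest libraries, which weighs libraries by their counts, had 44 below 0 and a median of -0.36. In the WT line 26 were below 0 within each set, with medians of -0.013 and -0.037. Each group holds 1 deepest library, so the differences within the deepest set have no replicates. The share of all genes below 0 within each set was not computed. The WT comparison, the difference of doxycycline effects and the uninduced lines still had 0 members called with the term. The background there was 0.0523% of all genes higher and 0% lower in the WT comparison, 0.776% and 0.505% in the difference, and 1.35% and 0.549% in the uninduced lines. Between the induced lines 16 were called lower with the term, against 10% of all genes, and 0 higher, against 11.6%.

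Levels between genes can be compared only per length. By mean CPM per kb of exon over the 12 libraries, TOP2A was highest at 310.5, followed by UBE2C at 246, PTTG1 at 95.4 and CENPF at 83.0. CCNB1 stood at 53.6 and TPX2 at 53.8 CPM per kb. FOXM1 was lowest at 0.724, below ESPL1 at 2.74. Exon lengths are from GENCODE v29 on another genome build than the counts and are approximate.

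Other genes of the cell cycle are given from lists by function, first for doxycycline in the S222A line, where 1.66% of all genes were called lower, 2.8% higher and 49.2% lay below 0. Of 70 other mitotic genes tested (72 listed), 1 fell with doxycycline in the S222A line, ARHGAP11A, by 0.64 on the log2 scale (adjusted p = 0.0236), a count near the share over all genes, and 64 were below 0, with a median of -0.29. DNA replication and S phase genes gave 7 called lower of 51 tested, with 50 below 0 and a median of -0.41. RFC3, a subunit of the clamp loader, stood at -0.90 (adjusted p = 0.0118), CDC25A, a phosphatase of S phase entry, at -0.76 (0.0152), and the helicase genes MCM7 and MCM4 at -0.56 (0.0332) and -0.67 (0.0358).

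In the same comparison, 1 of 17 tested genes of the DREAM and MYB-MuvB complex fell, MYBL2, the MYB protein of the activating complex, at -0.82 (adjusted p = 0.0490), with a list median of -0.19. The anaphase-promoting complex (15 tested) had no call and a median of 0.067, cohesin (12 tested) no call and -0.14, and the 3 NF-Y subunits no call and 0.024. Of 9 tested p53 targets on cell division, 1 rose, BTG2, an antiproliferative gene, by 2.73 on the log2 scale (adjusted p = 5.99e-06), with a list median of 0.31. BTG2 was also higher with doxycycline in the WT line (log2 1.47, adjusted p = 0.0498), the 1 gene called there, a call lost with any 1 library left out. It was higher in S222A than in WT uninduced cells as well (log2 1.56, adjusted p = 0.00297), and the difference of its doxycycline effects was not called (log2 1.26, adjusted p = 0.157).

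Between the induced lines, where 2.61% of all genes were called lower in S222A and 3.73% higher, 4 of the 70 other mitotic genes, 3 of the 51 replication genes and 1 of the 15 genes of the anaphase-promoting complex were called lower. Among them were CENPH, a kinetochore gene (log2 -0.92, adjusted p = 0.0112), MCM7 (-0.55, 0.0294), MCM4 (-0.66, 0.0319) and ANAPC1, a scaffold subunit of the anaphase-promoting complex (-0.97, 0.0236). Of the 9 p53 targets 3 were called higher, and none of the DREAM, cohesin or NF-Y genes was called. In the WT comparison BTG2 was the 1 call in these lists, and between the uninduced lines 2 of the 9 p53 targets were called higher in S222A.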

How the data were processed

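The authors deposited 1 table of raw whole-number counts per gene symbol, with 1 column for each of the 12 libraries; the submitters' processing notes name STAR 2.4, HTSeq 0.6.1, DESeq2 and build hg19 with no role or order. The sources used here give neither annotation release nor strand setting, so overlapping genes on either strand may share reads. Columns were matched to samples by the names in the labels. Genes were filtered by filterByExpr at a minimum count of 10, which left 11474 genes (99.47% of counts). They were tested with edgeR 4.0.16 in R 4.3.3 (robust quasi-likelihood F test, TMM factors, 12 libraries, 1 mean per group, 8 residual degrees of freedom, biological coefficient of variation 24.8%), with Benjamini-Hochberg adjustment over all 11474 genes and a call under 0.05. SEs are the absolute log2 fold change over the square root of F. No 2 libraries of a group agreed within sampling noise (chi-square per degree of freedom 2.79 to 39.6 over 12 pairs). Named genes are all 45 members, up to 4 genes with the smallest adjusted p per other list, and MEF2C. The members and lists were chosen with earlier results of these data known. Alternatives used DESeq2 1.42.0, limma 3.58.1, other factors, no filter, a replicate block, a depth term and left-out libraries. The tests were run on simulated counts with known changes first. Those changes were larger than the estimates for the 45 genes on S222A induction, and the deepest libraries did not differ in them. The simulation therefore does not bear on calls of the size reported here.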

Additional observations from a re-analysis of the deposited data

How the results depend on the processing

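The median log2 fold change of the 45 genes on S222A induction stayed between -0.43 and -0.33 in every alternative fit, and 42 to 44 genes stayed below 0. Against the 2 members called lower there (CCNB1 and TPX2), upper quartile factors, no filter and only the groups compared gave 0, DESeq2 4 and a depth term 17; leaving out 1 library gave 0 to 2. Against 1 between the induced lines, DESeq2 gave 2, a depth term 16, no deepest libraries 2 (CENPE and MKI67, without MAD2L1) and only the groups compared 0; no filter also gave 1, but CENPE in place of MAD2L1. Leaving out 1 library gave 0 to 2. Whether replicate numbers pair the samples is not stated in the labels. Same-numbered correlations ran from -0.531 to 0.255. The largest values were between the deepest libraries, 0.676 in the S222A line and 0.757 in the WT line. These libraries carry different numbers, so the correlations cannot decide on pairing. A replicate block gave 0 members on S222A induction and 0 between the induced lines.

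Counts over all genes moved too, and the cause was not tested. S222A induction called 511 genes, against 811 with DESeq2, 235 with the replicate block, 2052 with the depth term and 187 to 580 without 1 library. WT induction called 1 gene, against 0 with upper quartile factors, limma-voom, the replicate block, only the groups compared, no deepest libraries and any 1 library left out, 2 with no filter, 4 with DESeq2 and 6 with the depth term. The difference of inductions called 9, against 22 with no filter, 36 with DESeq2, 0 with the replicate block, 147 with the depth term and 0 to 4 without 1 library. The induced lines differed in 727 genes, against 350 with the replicate block, 2480 with the depth term, 482 with only the groups compared and 249 to 891 without 1 library. The uninduced lines differed in 45 genes, against 91 with no filter, 83 with DESeq2, 22 with the replicate block, 218 with the depth term, 9 with only the groups compared and 17 to 48 without 1 library.

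Of 99 gene results followed, 17 changed sign somewhere, in 27 of 2078 values, each uncalled. With 1 library left out, log2 values on S222A induction ran from -0.069 to 0.32 for CDC25C, -0.40 to 0.0014 for ESPL1, -0.28 to 0.00014 for BIRC5, -0.66 to 0.081 for CENPA, -0.55 to 0.011 for KIF11 and -0.18 to 0.058 for SMC4. CDC25C went to -0.0019 and SMC4 to 0.075 without the deepest libraries, and SMC4 to 0.0011 with upper quartile factors and 0.011 with no filter. On WT induction MAD2L1 ran from -0.18 to 0.012. Between the induced lines the ranges were -0.52 to 0.082 for CDC25B, -1.11 to 0.00024 for PLK1, -0.74 to 0.10 for AURKB, -0.24 to 0.042 for TTK, -0.31 to 0.17 for PTTG1, -0.26 to 0.046 for BIRC5, -0.43 to 0.041 for KIF11 and -0.19 to 0.020 for PRC1. CDC25B went to 0.046 and PTTG1 to 0.034 there without the deepest libraries. Between the uninduced lines CCNB1 ran from -0.23 to 0.055, with 0.056 without the deepest libraries, and TPX2 from -0.022 to 0.27. Low counts limit FOXM1, at 2 to 21 per library.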

Other observations

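S222A uninduced replicate 3, a shallow library of 930960 counts, held low values of several members beside high values of others. CENPA, the centromeric histone variant, stood at 14.2 CPM in it (13 counts), against 55.9 and 74.3 CPM in replicates 1 and 2. KIF20A, a motor of cytokinesis, stood at 9.86 CPM (9 counts), against 26.1 and 28.7 CPM. TPX2 and CCNB1 had their highest values of all 12 libraries in it, 296 and 195 CPM. Without it the log2 fold changes on S222A induction were -0.46 for TPX2 (adjusted p = 0.117) and -0.48 for CCNB1 (adjusted p = 0.121). These genes were chosen after their values were seen.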
